A study of Rattus norvegicus and Ovis aries with 113 samples.

Results

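Aquaporins are membrane channels for water and, in some members, for glycerol. The 9 aquaporin genes described here (AQP1, AQP2, AQP3, AQP4, AQP5, AQP7, AQP8, AQP9 and AQP11) were taken by upper-cased symbol from the gene count tables of sheep and rat. They are 9 of 31304 genes in the sheep table and 9 of 38675 in the rat table. The choice was made with measured values in view: rat Aqp2 and Aqp9 were known to be high in sperm and AQP4 in brain. Sperm against brain is therefore a description, as is the level of AQP4 in brain. RNA was sequenced from 5 post-pubertal male sheep (animals 687, 688, 690, 694 and 699), each giving sperm and 10 dissected brain regions, which made 55 libraries. A further 58 libraries came from Sprague Dawley rats. In 15 post-pubertal males these were whole brain and sperm, the latter harvested as seminal fluid, and in 14 females whole brain and ovary. No treatment, genotype or dose separated the animals.

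Aquaporins fall into groups by what they conduct. AQP1, AQP2, AQP4, AQP5 and AQP8 are mainly water channels, and AQP3, AQP7 and AQP9 are aquaglyceroporins that also pass glycerol. AQP11 is a distant member found in membranes inside the cell. In the brain, AQP4 sits in astrocyte endfeet around blood vessels and AQP1 in the choroid plexus, which secretes cerebrospinal fluid. In the male tract, AQP9 is known from the epididymis and AQP7 from spermatids and sperm.

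Levels are CPM, that is counts scaled to a common library total, adjusted by trimmed mean of M-values (TMM) factors over all libraries of a species. They are not corrected for gene length, so each gene is compared only with itself across tissues. In bulk tissue, fewer cells of a type and less RNA per cell cannot be told apart.

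Libraries held 13698889 to 119206015 counts. In 3 rat brain libraries, ribosomal RNA entries took 54% to 86.9% of counts, and in sheep sperm they took 22.4% to 85.2%. Rat sperm libraries 7, 16 and 17 held only 300 to 441 genes with 1 to 3 counts, against 2545 to 4692 in the other 12, so a 0 there was not read as a limit. The labelled sperm carried all 10 genes of a spermatid and sperm list (PRM1, TNP1, ODF1 and others), but unevenly. Their summed level ran from 340 to 27900 CPM in rat and from 239 to 8370 CPM in sheep. In sheep sperm a list of neutrophil markers summed to 13800 to 159000 CPM (5 of 6 genes in the table) and a list of squamous and basal epithelium markers to 8390 to 150000 CPM (7 of 7 genes). Both sums were highest in animal 688, whose spermatid sum was the lowest. Rat sperm held other cell types' markers too. Red cell markers summed to 533 to 20500 CPM (132 to 679 in brain, mostly Hbb), neutrophil markers to 8.81 to 1770 CPM (mostly Ltf) and proton pump cell markers to 17 to 480 CPM. Their part in the aquaporin levels of rat sperm was not tested.

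The rat genes that stand highest in sperm are shown, because sperm is the tissue with their highest level. Each has the 250 bases before the start site of its RefSeq promoter window (GRCr8, 5′ to 3′ on the gene's strand). Capitals mark matches to TGACG, the half-site of the cAMP response element, and to TGTTCT, an androgen receptor half-site, searched on both strands.
Aqp2 at chr7:132590036-132590285, plus strand: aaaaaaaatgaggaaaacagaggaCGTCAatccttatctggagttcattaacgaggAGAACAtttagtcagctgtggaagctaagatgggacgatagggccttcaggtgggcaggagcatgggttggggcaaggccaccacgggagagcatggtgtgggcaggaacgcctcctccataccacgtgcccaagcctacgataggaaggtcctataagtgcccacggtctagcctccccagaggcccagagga
Aqp9 at chr8:80718189-80718438, minus strand: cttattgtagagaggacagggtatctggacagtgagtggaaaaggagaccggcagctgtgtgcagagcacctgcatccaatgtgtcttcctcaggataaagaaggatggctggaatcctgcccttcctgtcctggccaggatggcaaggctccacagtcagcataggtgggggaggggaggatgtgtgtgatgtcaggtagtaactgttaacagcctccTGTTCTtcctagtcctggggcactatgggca
Aqp2 held TGACG on the minus strand at -226 to -222 and TGTTCT on the minus strand at -194 to -189, counted from the start site. Aqp9 held TGTTCT on the plus strand at -31 to -26. RefSeq places the Aqp9 gene at 80678027 to 80718273. The end of its window nearest the start site, with this match, therefore lies inside the annotated gene. The Aqp4 window (6798843 to 6799092) also overlapped its gene, which reaches 6799034. These are common words: of 27457 RefSeq promoter windows of this length, 19% held TGACG and 17.1% held TGTTCT. The full element TGACGTCA (in 1.7% of windows) and the palindromic androgen response element were in neither window, and the Aqp4 window held none of the motifs searched. A match of letters is a description and not a bound site. In the rat genome Aqp2 lies on chromosome 7 (132590286 to 132595321), 6206 bases from Aqp5, which lies 6008 bases from Aqp6.

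In rats, sperm carried Aqp2 and Aqp9 at levels that neither brain nor ovary approached. Aqp2, the vasopressin-regulated water channel of the kidney collecting duct, was measured in the 15 sperm libraries at 2010 CPM in the lowest, 12500 at the median and 22500 in the highest. Brain held 0 to 0.214 CPM over 29 libraries and ovary 0 to 0.135 CPM over 14. No sperm library overlapped any brain or ovary library. The mean in sperm was 11400 CPM ± 6520 (SD, n = 15), or 458000 times the mean of male brain. Aqp2 thus rested on 8081647 counts in sperm, 44 in brain and 28 in ovary.

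Aqp9, which passes water, glycerol and other small solutes, ran from 72.2 CPM through a median of 476 to 753 CPM in rat sperm. In all 29 brain libraries it lay between 5.13 and 8.82 CPM, and in ovary between 0.952 and 24 CPM with a median of 7.52. Every sperm library stood above every brain and ovary library. The sperm mean of 477 CPM ± 229 (SD, n = 15) was 68.7 times the male brain mean.

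Among the other rat members, Aqp7, Aqp8 and Aqp11 varied widely between sperm libraries. Aqp11 ran from 3.8 through a median of 14 to 356 CPM in sperm, with male brain between 6.12 and 10.2 CPM. Aqp7 ran from 0 through 4.74 to 444 CPM and Aqp8, a water channel that also passes ammonia, from 0 through 0.137 to 61.5 CPM. The 3 highest Aqp7 values, 444, 236 and 101 CPM, were in the libraries of rats 14, 7 and 3, the same 3 that led for Aqp11 at 356, 293 and 146 CPM. The other sperm libraries were lower than these 3 for both genes. Even so, 14 of 15 sperm libraries stood above every male brain library for Aqp7. For Aqp11, 10 of 15 stood above every male brain library and 3 below. In rat brain only 2 Aqp7 counts were counted in all 29 libraries.

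Aqp1, Aqp3, Aqp4 and Aqp5 stayed at 24.4 CPM or less in every rat sperm library. Aqp4 was between 0 and 0.302 CPM there and between 314 and 811 CPM in brain. Aqp1 had similar means in sperm (6.34 CPM ± 6.71, SD, n = 15) and male brain (6.03 CPM ± 2.73, SD, n = 15), and the groups overlapped. Aqp5 reached 2.91 CPM and Aqp3 1.79 CPM at most in sperm. Their sperm means were 11.1 and 33.5 times the male brain means, which rested on 102 and 10 counts. For each gene 13 of 15 sperm libraries stood above every male brain library, and for Aqp5 1 stood below.

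**Figure D1:**
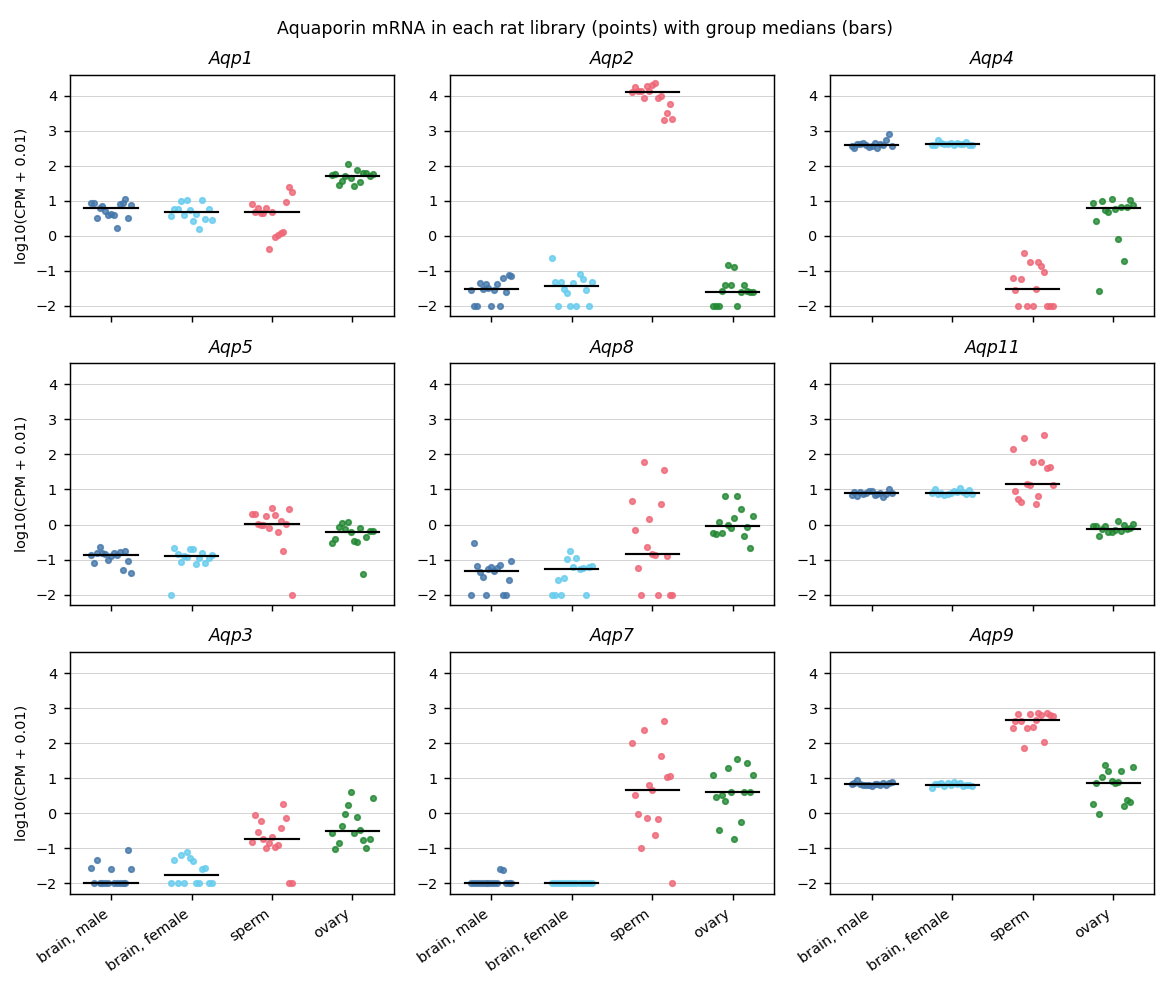
CPM on a log10 scale after adding 0.01, for each of the 9 genes in each rat library (points), grouped by tissue, with medians as bars; points at -2 are libraries with 0 counts. Aqp2 and Aqp9 in sperm and Aqp4 in brain stand clear of the other tissues, and Aqp7, Aqp8 and Aqp11 spread widely between sperm libraries.

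That spread followed the spermatid list. Across the 15 rat sperm libraries each member was set against the mean log2(CPM + 1) of the 10 spermatid genes and of 9 epididymis genes (CRISP1, ADAM7, LCN5 and others). With the ovary relations below and Aqp2 against Aqp9, 37 relations were computed. For Aqp11 Pearson's r with the spermatid list was 0.98 (permutation p = 1e-05, the smallest that 100000 permutations give; adjusted p = 0.00018) and Spearman's rho was 0.97 (permutation p = 1e-05). For Aqp7 r was 0.96 (permutation p = 1e-05, adjusted p = 0.00018) and rho 0.90 (permutation p = 6e-05). For Aqp8 r was 0.87 (permutation p = 3e-05, adjusted p = 0.00037) and rho 0.70 (permutation p = 0.0045). Without rats 7 and 14, the farthest from the list's median, r remained at 0.96, 0.92 and 0.76. On plain totals Aqp8 kept an r of 0.87 (permutation p = 3e-05, adjusted p = 0.00037). Its rho did not pass there, at 0.66 (permutation p = 0.0086, adjusted p = 0.053). Libraries rich in spermatid transcripts were thus richer in Aqp11 and Aqp7 and, less firmly, in Aqp8. The values of a pair come from 1 library. How many of all genes rise with the list was not computed, so it cannot be said whether the relation is particular to these channels. Libraries 3, 7 and 14 held 17664, 19531 and 19576 genes at 1 CPM or more on plain totals, against 12564 to 15341 in the rest.

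Aqp9 went the other way, but on few libraries. Its r with the spermatid list was -0.71 (permutation p = 0.0034, adjusted p = 0.021) and rho -0.41 (permutation p = 0.13), and r was -0.26 without rats 7 and 14, so the relation rested on those samples. With the epididymis list r was 0.75 (permutation p = 0.0015, adjusted p = 0.011) and rho 0.80 (permutation p = 0.00065), and r was 0.55 without rats 5 and 7. Without libraries 7, 16 and 17, a choice made after seeing the data, neither relation passed by Pearson's r, at -0.63 (permutation p = 0.028, adjusted p = 0.13) and 0.56 (permutation p = 0.06, adjusted p = 0.20). By Spearman's rho the relation with the epididymis list still passed there, at 0.76 (permutation p = 0.0052, adjusted p = 0.049). The epididymis list itself was low, at 1.77 to 102 CPM summed over 9 genes.

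For Aqp2 neither list passed the threshold on the TMM scale. With the spermatid list r was -0.39 (permutation p = 0.14), rho -0.50 (permutation p = 0.06) and r without rats 7 and 14 -0.16. With the epididymis list r was -0.32 (permutation p = 0.25), rho -0.42 (permutation p = 0.12) and r without rats 5 and 7 -0.64. On plain totals the epididymis list gave a rho of -0.72 (permutation p = 0.0034, adjusted p = 0.042), past the threshold, and an r of -0.52 (permutation p = 0.047, adjusted p = 0.17). With Aqp9, a relation added after the data were seen, r was 0.08 (permutation p = 0.78) and rho -0.12 (permutation p = 0.66), and r was -0.55 without rats 7 and 14. Whether Aqp2 and Aqp9 vary together was not resolved by these 15 libraries.

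**Figure D2:**
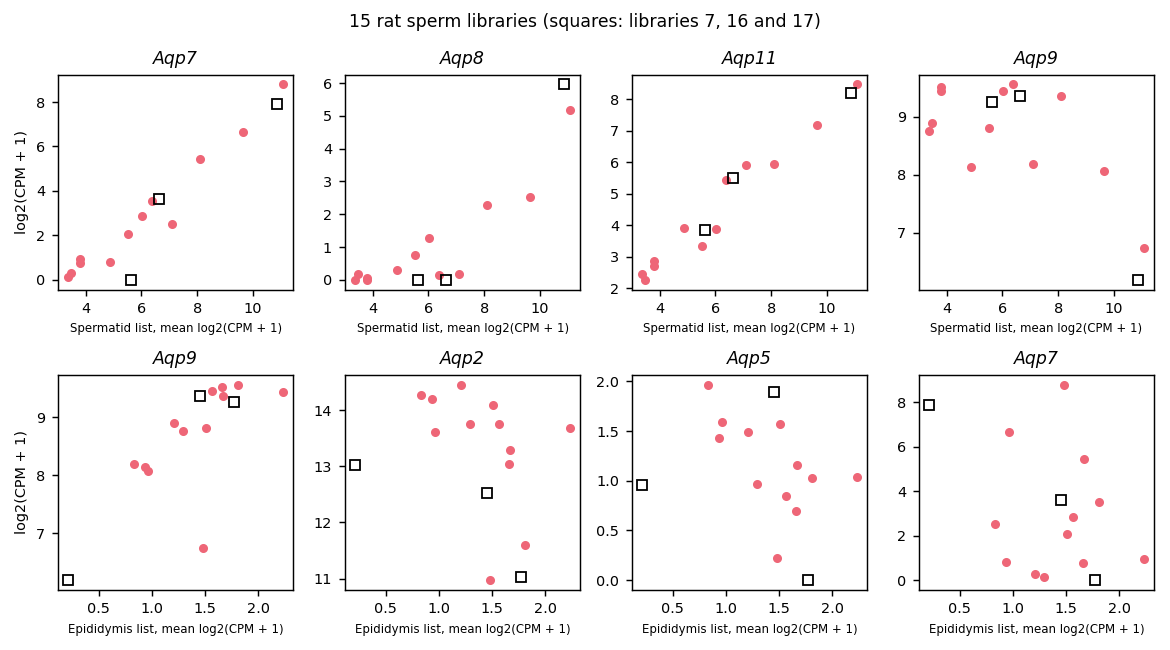
log2(CPM + 1) of a member (y axis) against the mean log2(CPM + 1) of a marker list (x axis) in the 15 rat sperm libraries, with the spermatid list in the upper row and the epididymis list in the lower row; squares are libraries 7, 16 and 17. Aqp7, Aqp8 and Aqp11 rise with the spermatid list, and Aqp9 is lowest in 2 of the libraries richest in it.

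Genes with the pattern most like Aqp2 over the 15 rat sperm libraries, among 9480 genes with a mean of at least 10 CPM, were Ptges (r = 0.986), Rcan1 (0.979), Fads1 (0.979), Ptgs2 (0.977) and Zdhhc2 (0.975). Ptges and Ptgs2 encode enzymes of prostaglandin synthesis. For Aqp9 they were Mpzl2 (r = 0.992), Crisp3 (0.991), Slc35b3 (0.990), Acss2 (0.989) and Tspan3 (0.988). These r values describe the same 15 libraries and carry no test.

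In sheep sperm, AQP5 stood farthest above brain. This water channel of salivary, lacrimal and airway glands was at 329, 2640, 1080, 301 and 1030 CPM in sheep sperm (animals 687, 688, 690, 694 and 699). It was 0.0637 to 5.52 CPM in the 50 brain libraries, so the groups did not overlap. Animal 688 was highest for AQP5 and also for the neutrophil and squamous epithelium sums; the part of those cells in AQP5 was not tested. On plain library totals, without TMM scaling, sperm was 273 times brain in place of 1460 times, because the TMM factors of sheep sperm were 0.114 to 0.305. Rat sperm held Aqp5 at 1.33 CPM ± 0.847 (SD, n = 15). Extraction, library kit and species changed together, so the species and the preparation cannot be told apart.

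The water channels AQP2 and AQP8 were uneven in sheep sperm. AQP2 was at 3.36, 24.2, 5.27, 0 and 12.9 CPM in animals 687, 688, 690, 694 and 699, and brain did not exceed 0.229 CPM. AQP8 was at 0.806, 7.04, 47.1, 0.999 and 0 CPM, with animal 690 apart from the others. AQP4 was nearly absent from sperm, at 0, 0, 0.988, 0.444 and 1.57 CPM. AQP1 had 0 counts in all 5 sperm libraries. Against the limit of 3 counts over their TMM-scaled total (0.0736 CPM), pooled sperm was at least 6.13-fold lower than pooled brain, and on plain totals at least 36.4-fold lower.

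Of the glycerol channels, AQP7 was at 76.9, 1.94, 19.4, 11.3 and 68.7 CPM in sheep sperm against a brain mean of 2.79 CPM ± 2.28 (SD, n = 50). Here 4 of 5 sperm libraries stood above all brain libraries, and on plain totals the ratio of means fell from 12.8 to 1.78. AQP9 was at 6.71, 1.94, 0.658, 2.44 and 0.786 CPM in sperm, on 105 counts, and only 10 counts were found in 50 brain libraries. The pooled ratio was 865 on TMM-scaled totals (95% interval 452 to 1860, counting error only) and 146 on plain totals (76.3 to 313), so the scaling moves it by more than the counting error. AQP3 was at 0.537, 3.88, 2.63, 5.33 and 1.80 CPM in sperm, above all brain libraries after TMM scaling but overlapping them on plain totals. AQP11 was detected in 2 of 5 sperm libraries, at 1.07 and 0.562 CPM, and in every brain library.

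**Figure D3:**
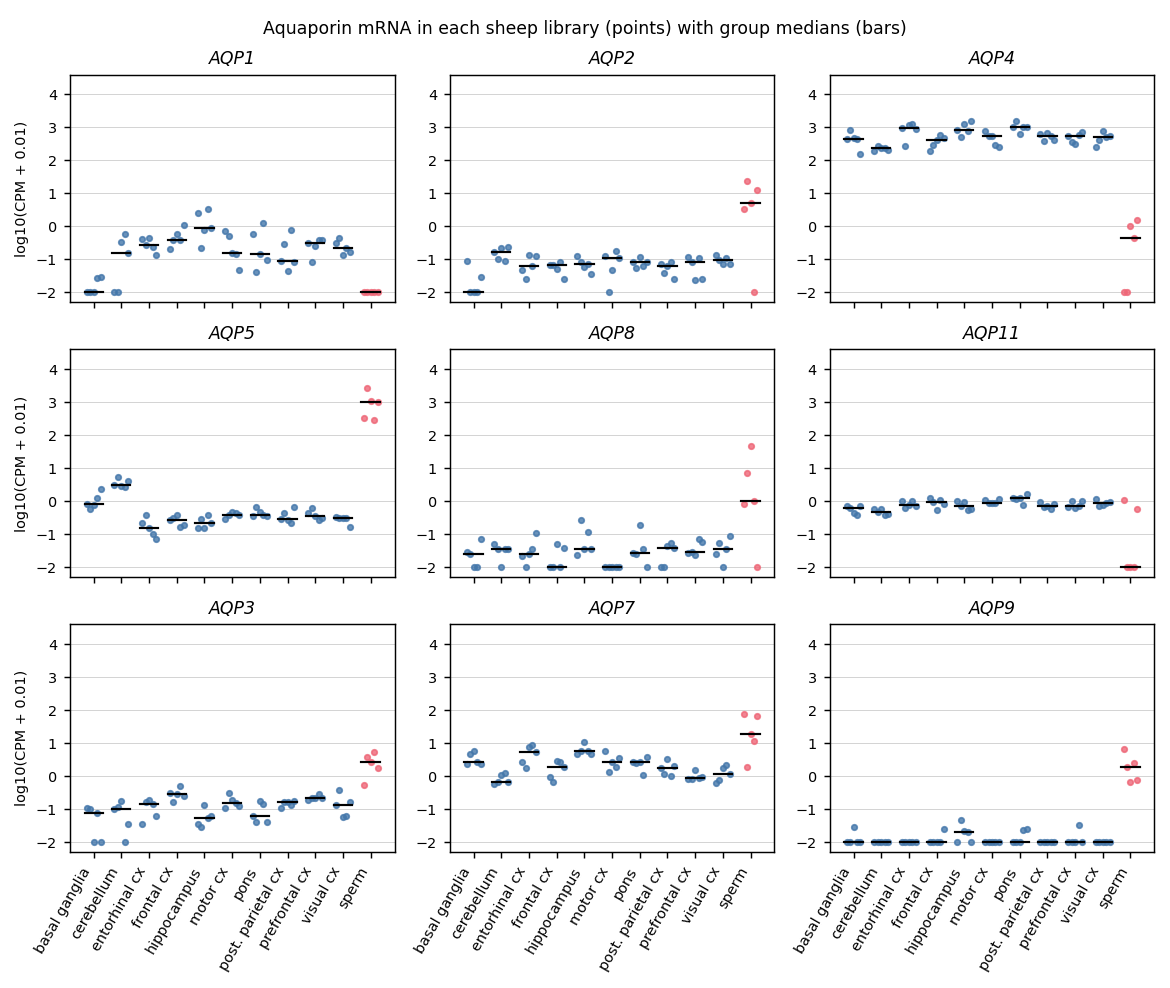
CPM on a log10 scale after adding 0.01, for each gene in each sheep library (5 points per group), with medians as bars; points at -2 are libraries with 0 counts. AQP5 is highest in sperm and, within the brain, in cerebellum, and AQP4 is high in all 10 regions and near 0 in sperm.

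The brain regions of the sheep were compared with edgeR's quasi-likelihood test, each region against the mean of the other 9. Calls required an adjusted p under 0.05 together with a log2 fold change of 1 or more in either direction. Enough counts for the test were found for 6 members (AQP1, AQP3, AQP4, AQP5, AQP7 and AQP11), and AQP2, AQP8 and AQP9 were too low. Of 60 gene-by-region tests of members 13 were called, against 7.63% of all such tests. Cerebellum had 3, where 28.8% of all genes were called, and hippocampus 3, where 4.62% were called. None was called in motor, posterior parietal and visual cortex, where 1.64%, 2.66% and 2.12% of all genes were called.

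AQP4 was lowest in cerebellum and highest in pons and hippocampus. In cerebellum it was at 194, 265, 243, 242 and 205 CPM (animals in the order above), a tight group near the bottom of the brain range. In pons it was at 999, 1550, 637, 1040 and 1010 CPM, and in hippocampus at 854, 494, 1300, 785 and 1590 CPM. The log2 fold change was -1.43 ± 0.31 (SE) in cerebellum (edgeR adjusted p = 0.000103) and 1.06 ± 0.24 in pons (edgeR adjusted p = 0.000347). The pons call was lost without animal 688, at 0.84 (edgeR adjusted p = 0.00552). In hippocampus it was 0.96 ± 0.25 (edgeR adjusted p = 0.00749), just short of the fold minimum, and past it at 1.02, 1.14 and 1.07 without animals 687, 688 and 694. In entorhinal cortex it was 0.84 ± 0.25 (edgeR adjusted p = 0.0497), and 1.08 without animal 688 (edgeR adjusted p = 0.00465), where that animal had 274 CPM against 915 to 1230 CPM in the other 4. By mean level the order ran from pons (1050 CPM) through hippocampus (1000) and entorhinal cortex (922) to posterior parietal (528), prefrontal (504), visual (499) and motor cortex (478), basal ganglia (476), frontal cortex (387) and cerebellum (230). SDs of 121 to 436 CPM in all regions but cerebellum (29.4) exceed the steps between most neighbours.

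Other genes of astrocyte endfeet did not all move with AQP4. Of 13 endfoot, potassium and water handling genes, 3 were lower and none higher in cerebellum (median log2 fold change -0.32, against -0.045 over all genes). The 3 were SLC1A2, a glutamate transporter (-4.08), KCNJ10, the potassium channel placed beside AQP4 (-1.12), and MLC1 (-1.04). Cerebellum was also the region with the largest background, 28.8% of all genes called, and all 5 endothelial markers were lower there. In pons, where 18.7% of all genes were called, 2 of the 13 were higher and 2 lower (median 0.10, against 0.031). KCNJ10 rose with AQP4 (1.33), while SLC1A2 (-1.93) and SLC1A3 (-1.18) fell. The general astrocyte list had 2 of 7 genes higher in pons and 1 higher and 1 lower in cerebellum. Over the 50 brain libraries, among 8819 genes of at least 10 CPM, the pattern most like AQP4 was that of ITGB8 (r = 0.932), MAOA (0.930), TRPS1 (0.928), CDC14B (0.925) and GREM1 (0.921).

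AQP5 was highest in cerebellum. It was at 3.12, 5.52, 3.01, 2.77 and 4.12 CPM in cerebellum, above all 45 libraries of the other regions, which reached 2.29 CPM. Its log2 change there was 3.37 ± 0.20 (edgeR adjusted p = 7.07e-19, 28.8% of all genes called). In basal ganglia AQP5 was at 0.847, 0.562, 0.743, 1.25 and 2.29 CPM, 1.51 ± 0.23 higher on the log2 scale (edgeR adjusted p = 1.66e-06, 10.3% of all genes called). In entorhinal cortex it fell by 1.48 ± 0.31 (edgeR adjusted p = 0.00278, 2.24% of genes called). In hippocampus it was -1.02 ± 0.30 (edgeR adjusted p = 0.0193, 4.62% of genes called), a call lost without animals 687, 688, 690 or 699, at -0.92, -0.97, -0.91 and -0.99. The other aquaporins AQP6 and AQP10 were higher in cerebellum too, by 1.86 and 1.98 on the log2 scale, out of 3 such genes tested. Of all 21147 genes tested, 1977 were called higher there. AQP6 was lower in hippocampus (-1.62) and pons (-1.42).

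AQP7 was highest in hippocampus and entorhinal cortex and lowest in cerebellum. Hippocampus held 4.80, 5.70, 10.9, 5.92 and 4.62 CPM, and entorhinal cortex 2.66, 1.74, 7.55, 8.96 and 5.37 CPM. Cerebellum held 0.558, 0.660, 1.11, 1.28 and 0.672 CPM, below every hippocampal and entorhinal library. The log2 fold changes were 1.65 ± 0.28 (edgeR adjusted p = 5.33e-05) in hippocampus, 1.35 ± 0.29 (edgeR adjusted p = 0.00292) in entorhinal cortex and -1.59 ± 0.38 (edgeR adjusted p = 0.000359) in cerebellum. Without animal 694 entorhinal cortex gave 1.07 (edgeR adjusted p = 0.0845). Prefrontal cortex was lower, at -1.32 ± 0.37 (edgeR adjusted p = 0.0217, 2.46% of genes called), a call that stood without animal 688 only, with edgeR adjusted p of 0.0627, 0.0570, 0.0780 and 0.105 without animals 687, 690, 694 and 699.

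**Figure D4:**
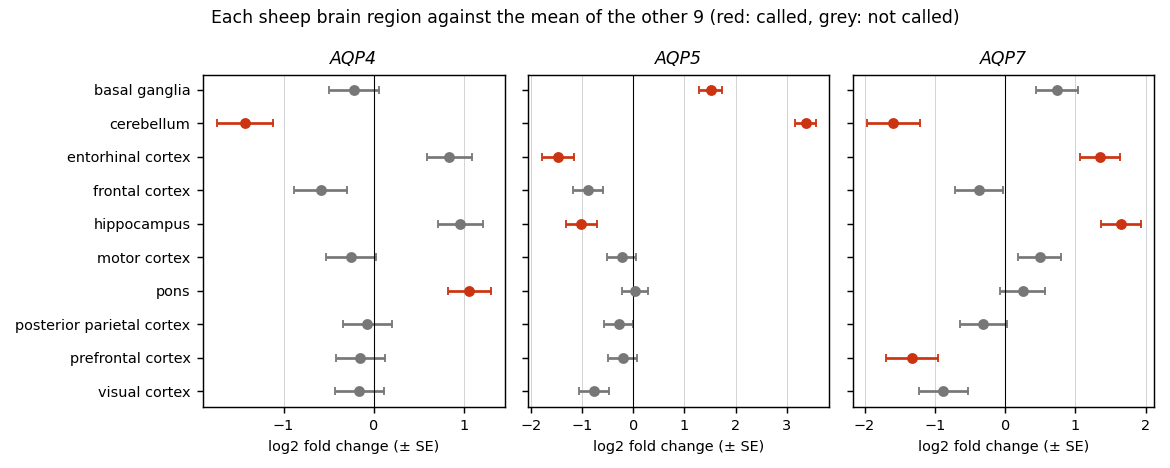
log2 fold change (± SE) of AQP4, AQP5 and AQP7 in each sheep brain region against the mean of the other 9 (5 libraries per region); red points were called and grey points were not. In cerebellum AQP5 is at 3.37 while AQP4 is at -1.43 and AQP7 at -1.59.

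AQP1, the channel of the choroid plexus, was at 2.54, 0.219, 0.767, 3.32 and 0.864 CPM in hippocampus. It was higher there by 2.90 ± 0.49 on the log2 scale (edgeR adjusted p = 5.51e-05). TTR, which marks choroid plexus, was at 79.4, 142, 140, 1170 and 43.3 CPM in the same libraries, and 4 of 6 choroid plexus markers were higher in hippocampus, against 4.62% of all genes called. The same number was higher in cerebellum and pons, against 28.8% and 18.7% of all genes called, and AQP1 was not called there (-0.27 and 0.87). The part of attached choroid plexus in the AQP1 level was not tested. In basal ganglia only 2 AQP1 counts were counted over 5 libraries, and the pooled level in the other 9 regions was 68.1 times higher on TMM-scaled totals (95% interval 18.8 to 563, counting error only; edgeR log2 fold change -5.33 ± 1.18, adjusted p = 0.000457).

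The glycerol channel AQP3 was called in frontal cortex only, of the 10 regions tested, and AQP11 in none. AQP3 was at 0.298, 0.162, 0.284, 0.490 and 0.239 CPM in frontal cortex, 1.44 ± 0.39 higher on the log2 scale (edgeR adjusted p = 0.0151, 2.77% of genes called). Without animals 687 or 694 it was 1.39 (edgeR adjusted p = 0.0807) and 1.17 (edgeR adjusted p = 0.130). AQP11 passed the p threshold but not the fold minimum in cerebellum (-0.84), basal ganglia (-0.55) and pons (0.74). AQP9 was found in 8 of 50 brain libraries with 1 or 2 counts each, while every rat brain library held Aqp9 at 5.13 CPM or more; these animals differ in species, dissection and library kit.

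Ovary was compared with brain in the 14 female rats, for the 8 members other than Aqp4. Of the 6 with enough counts 5 were called, 4 higher in ovary and 1 lower, against 56.9% of all genes called (27.7% higher and 29.2% lower). The share is thus read against a contrast in which most genes differ. Aqp5, Aqp7 and Aqp8 had enough counts only through ovary, with 94, 0 and 38 counts in female brain. Their direction was therefore set by the filter, and their p values below are a description and not support. Aqp1 was highest in ovary, at 26.8 to 115 CPM with a median of 51.2, against 1.54 to 10.3 CPM in brain. Every ovary lay above every brain, and the log2 difference was 3.34 ± 0.27 (edgeR adjusted p = 5.7e-13).

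Aqp7 had 0 counts in all 14 female brains and 0.178 to 36.4 CPM in ovary, with a median of 3.95. Against the limit of 3 counts over the TMM-scaled brain total (0.00387 CPM), pooled ovary was at least 2330-fold higher (edgeR adjusted p = 3.63e-07). Aqp8 was at 0.200 to 6.61 CPM in ovary with a median of 0.910, and at 0 to 0.168 CPM in brain, which gave 5.18 ± 0.59 on the log2 scale (edgeR adjusted p = 1.68e-09). Aqp5 was at 0.0291 to 1.19 CPM with a median of 0.620, above all brains in 13 of 14 ovaries (2.30 ± 0.32, edgeR adjusted p = 8.94e-08).

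Aqp11 was the member that fell, at 0.452 to 1.29 CPM in ovary against 6.80 to 11.1 CPM in brain (-3.38 ± 0.12, edgeR adjusted p = 1.78e-21). Aqp9 was at 0.952 to 24 CPM in ovary and 5.13 to 7.72 CPM in brain, and was not called (0.47 ± 0.35, edgeR adjusted p = 0.202). Ovaries lay on both sides of brain, 6 above all brains and 5 below all. Aqp3 had too few counts for the test, at 821 in ovary and 16 in brain, a pooled ratio of 42.9 on TMM-scaled totals (95% interval 26.2 to 75.3, counting error only). It was called without the filter on low counts and by DESeq2. Aqp4, chosen for its level in brain, was at 0.0161 to 11.5 CPM in ovary and 378 to 543 CPM in brain.

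The lists of genes around these channels are read against the same 56.9% of all genes called, near which the shares of the vasopressin and glycerol lists lie. Of the 13 endfoot genes 8 were lower in ovary and 3 higher (median -4.44, against 0.019 over all genes), led by Slc1a2 (-12.54), Mlc1 (-11.25) and Gjb6 (-8.73). Of 8 vasopressin and cAMP signalling genes 3 were higher and 2 lower, the largest changes being in the vasopressin receptors Avpr1b (-5.72) and Avpr2 (-5.09) and the oxytocin receptor Oxtr (3.36). Of 6 glycerol handling genes 3 were higher and 1 lower, led by the lipases Lipe (3.00) and Pnpla2 (2.45) and by Gpd2 (-1.30). Granulosa markers (7 of 7), luteal and theca markers (6 of 6) and oocyte markers (5 of 5) were all higher in ovary, against 27.7% of all genes. In the fit of brain libraries alone, only 5, 2 and 1 of them had enough counts. The others had enough counts only through ovary, so their direction was set by the filter. These counts are therefore a description and not support. Within the 14 ovaries, only 1 relation with the granulosa or the luteal and theca list passed by Pearson's r. It was Aqp2 with the luteal and theca list, at -0.73 (permutation p = 0.00086, adjusted p = 0.0080), and -0.59 without rats 2 and 21. By Spearman's rho it did not pass, at -0.66 (permutation p = 0.012, adjusted p = 0.065). Aqp2 had 28 counts in all there, so single reads set its values.

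No difference between male and female rat brain was called for any member tested. The test could be made for 4 members (Aqp1, Aqp4, Aqp9 and Aqp11), and edgeR called none, against 0.0583% of all genes. Aqp4 was at 314 to 811 CPM with a median of 384 in 15 males and 378 to 543 CPM with a median of 414 in 14 females. The log2 fold changes of males over females were -0.01 ± 0.09 for Aqp4, 0.19 ± 0.26 for Aqp1, 0.08 ± 0.06 for Aqp9 and -0.09 ± 0.08 for Aqp11. DESeq2 called 0 members, against 0.102% of all genes. At an unadjusted p below 0.05 edgeR also found 0 of the 4. The share of all genes at that threshold was not computed, so this last count is not read as a result.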

How the data were processed

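The sheep libraries were made with a Kapa stranded mRNA kit and the rat libraries with one from Watchmaker, per the labels. The series text names Trimmomatic 0.39 for trimming, STAR 2.7.5a for alignment (to GRCr8 or, in sheep, ARS-UI_Ramb_v3.0) and Rsubread 2.20.0 for counting. How strand and reads with several alignments were treated is not stated in these sources, so counts shared by similar genes are uncertain. The authors deposited raw counts by gene for 113 libraries, and every column was mapped to its sample by name. No columns were identical.

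Levels were computed as TMM-scaled CPM. Tests used edgeR 4.0.16 (quasi-likelihood, prior count 0.125, filterByExpr) in R 4.3.3 over all genes that passed the filter (21147 in sheep, 20801 for ovary against brain), with Benjamini-Hochberg adjustment. DESeq2 1.42.0 and limma 3.58.1 (voom) were alternatives. The scripts were tested on simulated counts with known changes. Correlations used log2(CPM + 1) and two-sided permutation tests with 100000 resamples. Intervals and limits at 95% or 3 counts cover counting error only. They were computed on plain totals and, added after the data were seen, on TMM-scaled totals. Promoters and positions came from RefSeq GRCr8 tables, matched by symbol.

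The members and gene lists were chosen with earlier results of these data known. All 9 members are named in each comparison. From each pathway list up to 3 called genes with the largest change are named, and the 5 genes most like AQP4, Aqp2 and Aqp9.

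The regions of a sheep come from 1 animal, and the brain and ovary of a female rat share a number. Deviations from group means correlated with a median of 0.182 within a sheep (225 pairs) against -0.038 between sheep, and 0 within a rat (14 pairs). The unblocked fit is reported.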

Additional observations from a re-analysis of the deposited data

Results flagged for a closer look

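In each group of 5 sheep libraries, the highest and the lowest value of each aquaporin were compared with the next by Dixon's criterion. Of 92 groups 10 held a library apart from the others. About 1 in 20 groups would be flagged by chance if values were normally spread, which low counts are not. A group with counts in only 1 library is flagged whatever its value, as for AQP9 in basal ganglia, frontal and prefrontal cortex. The number is therefore not set against chance. AQP8 in sheep sperm was at 47.1 CPM in animal 690, on 143 counts, and the next value was 7.04. The same animal stood high for AQP7 in hippocampus (10.9 CPM, next 5.92) and in prefrontal cortex (1.59 CPM, next 0.949). AQP5 in visual cortex was lowest in animal 699 (0.158 CPM on 10 counts, next 0.297). The other 6 also rested on 12 counts or fewer: AQP2 in basal ganglia (0.077 CPM, animal 687), AQP8 in entorhinal cortex (0.102, animal 699) and pons (0.184, animal 690), and AQP9 in basal ganglia (0.0186, animal 690), frontal cortex (0.0149, animal 699) and prefrontal cortex (0.0245, animal 694).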

How the results depend on the processing

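The 13 calls of members in sheep regions numbered 13 with DESeq2's scaling (RLE), 12 with upper quartile factors, 17 without the low-count filter, 15 by DESeq2, 15 by voom, 18 with no fold minimum and 11 to 14 when 1 sheep was left out. With the animal as a block, the pairing changed no call: 13 of 13 calls were shared in sheep and 5 of 5 in ovary against brain. Among the ovary calls, Aqp5, Aqp7 and Aqp8 had their direction set by the filter, so that they were kept is not support. Ovary gained Aqp3 without the filter and by DESeq2 (6 calls), and male against female brain stayed at 0 calls under each alternative run. Leaving out the rats with brain libraries rich in ribosomal RNA, chosen after seeing the data, left 5 and 0 calls. Direction was checked for member tests with an edgeR adjusted p under 0.05 in the main fit, Aqp4 in ovary aside. None of these reversed under any alternative run, which for Aqp5, Aqp7 and Aqp8 in ovary carries no weight. The other member tests were not checked. Without rat sperm libraries 7, 16 and 17, also chosen after seeing the data, 3 relations within rat sperm passed by Pearson's r in place of 5, both lost ones being those of Aqp9. By Spearman's rho the relation of Aqp9 with the epididymis list still passed. Counts over all genes moved by more than 1.5 times in 22 cases. With no fold minimum, ovary gave 18431 (11832 with it), cerebellum 12839 (6093), pons 10211 (3950), basal ganglia 5830 (2176), hippocampus 2321 (976), posterior parietal 2202 (562), frontal 1660 (585), prefrontal 1334 (520), visual 1195 (448) and motor cortex 750 (347). Male against female brain gave 12 genes, 19 without the filter, 34 by DESeq2 and 37 with no fold minimum, and ovary 18799 without the filter. Leaving out 1 sheep lowered entorhinal cortex from 474 to 310 (694) and 249 (699), frontal to 387 (690), hippocampus to 625 (688), motor to 229 (690), posterior parietal to 322 (694), prefrontal to 304 (690) and visual cortex to 281 (687). Depth limits AQP9, AQP8 and AQP2 in sheep brain, where single reads set the values.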
